A study of Mus musculus with 9 samples.

Results

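The genes described here are 9 mouse Toll-like receptors (Tlr1, Tlr2, Tlr3, Tlr4, Tlr6, Tlr7, Tlr8, Tlr9 and Tlr13) and Cd14, taken by gene name from the 28379 genes of the deposited table. All 10 genes were found. They were measured by RNA sequencing of bone marrow-derived macrophages (BMDMs) in 9 libraries, 3 in each of 3 groups. BMDMs are macrophages grown from bone marrow cells with the growth factor M-CSF, and here they came from the legs of C57BL/6J mice aged 10 weeks and received M-CSF at 20 ng/ml in every group. The PBS group received no further factor. The RANKL group received RANKL, the cytokine that turns these cells into preosteoclasts, at 100 ng/ml. The RANKL + Vit D + K group received the same RANKL with calcitriol, the active form of vitamin D, at 1000 nM and MK4, a form of vitamin K, at 20 μM by the labels and 40 μM by the study's methods. All cultures were collected after 48 h. No group here received a single vitamin or the vitamins without RANKL, and the methods name no solvent for them. The part of each vitamin or of a solvent therefore cannot be told apart. The methods state that libraries were built from pooled RNA, and nothing says that the 3 libraries of a group came from separate cultures or mice, so the p-values below measure only the spread between these libraries, which may be technical.

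Toll-like receptors are membrane proteins of innate immune cells that bind molecules of microbes or of damaged cells. Those of the cell surface bind lipids and proteins, whereas the endosomal ones bind nucleic acids. Nearly all signal through the adaptor MyD88 to NF-κB, a pathway that RANK, the receptor of RANKL, also uses. CD14 is a co-receptor that hands bacterial lipopolysaccharide to TLR4 and its partner MD-2 and also serves other Toll-like receptors. Macrophages are among the cells that express these receptors most broadly.

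The receptor genes lie on 6 chromosomes of the mouse build GRCm38 in the table's coordinates. Tlr2 is at chr3:83836272-83841767, Tlr4 at chr4:66827584-66930284, Tlr3 at chr8:45395665-45411080 and Tlr9 at chr9:106222598-106226883. Tlr1 (chr5:64924679-64933561) and Tlr6 (chr5:64952031-64960048) are neighbours, with 18469 bases between them, and so are Tlr8 (chrX:167242696-167264329) and Tlr7 (chrX:167304929-167330558), with 40599 bases between them. Tlr13 is at chrX:106143204-106160493. The annotation places the coding sequence of Tlr1, Tlr2 and Tlr6 in 1 exon. Of the 150-base stretches of the annotated transcripts, 4.30% of those of Tlr1 and 3.86% of those of Tlr6 were identical in the other gene, so reads in that stretch could be given to either gene. Tlr3 shares 1.88% of its stretches with Gm45542, an antisense gene that held at most 4 counts in any library. No 150-base stretch was shared for the other 7 genes.

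The sequences before the start sites of 4 receptors are shown because they span the range of changes reported below. They are Tlr8, Tlr9 and Tlr1, which had the 3 greatest falls when the vitamins were added to RANKL, and Tlr13, which did not fall in that comparison. Each is the RefSeq sequence (GRCm38.p6) that ends at the start site, kept only where it lies before every annotated exon, on the strand of the gene. Capitals mark matches to any of the letters searched on both strands, which were GAGGAA for PU.1, TGANTCA for AP-1, AGTTCA and AGGTCA for half-sites of the vitamin D receptor, GAAA, any 2 bases and GAAA again for the interferon-response core and TATAAA for the TATA box.
Tlr8 (chrX:167264330-167264579, minus strand): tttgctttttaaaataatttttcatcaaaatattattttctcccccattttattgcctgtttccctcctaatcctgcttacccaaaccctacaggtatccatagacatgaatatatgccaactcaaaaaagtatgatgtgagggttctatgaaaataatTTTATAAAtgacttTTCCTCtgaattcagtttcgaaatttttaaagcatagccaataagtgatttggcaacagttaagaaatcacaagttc
Tlr9 (chr9:106222348-106222597, plus strand): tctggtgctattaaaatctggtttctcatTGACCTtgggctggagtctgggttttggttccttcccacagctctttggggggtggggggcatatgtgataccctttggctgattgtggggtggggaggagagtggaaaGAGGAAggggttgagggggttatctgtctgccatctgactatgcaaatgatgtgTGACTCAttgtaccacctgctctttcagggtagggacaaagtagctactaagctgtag
Tlr1 (chr5:64933564-64933808, minus strand): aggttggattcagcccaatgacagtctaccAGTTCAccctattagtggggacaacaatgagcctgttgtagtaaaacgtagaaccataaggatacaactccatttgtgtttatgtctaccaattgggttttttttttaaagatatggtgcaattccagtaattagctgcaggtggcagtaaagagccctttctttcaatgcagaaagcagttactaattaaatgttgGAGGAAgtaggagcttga
Tlr13 (chrX:106143025-106143203, plus strand): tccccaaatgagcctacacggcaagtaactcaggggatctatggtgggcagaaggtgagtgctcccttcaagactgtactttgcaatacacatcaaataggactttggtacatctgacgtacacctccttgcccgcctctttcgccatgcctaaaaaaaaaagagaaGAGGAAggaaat

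All 4 sequences held the PU.1 letters, which 23.2% of the 32851 windows of 250 bases before a start site also held. No other window searched for these genes held them, including that of a second Tlr1 start site, so the 4 shown do not stand for the rest. PU.1 is a transcription factor of macrophages and osteoclast precursors. In Tlr8 the match lay 77 to 72 bases before the start site, just after a TTTATAAA stretch in which the TATA box letters matched both strands and overlapped. Tlr9 also held 1 AP-1 match, which reads the same on both strands, and the half-site letters AGGTCA on the opposite strand, and Tlr1 held AGTTCA. AP-1 letters were in 6.75% and either half-site in 24.2% of all windows. Windows were found for 7 of the 10 genes (Tlr1, Tlr2, Tlr3, Tlr6, Tlr8, Tlr9 and Tlr13), 9 windows in all, of which 4 held PU.1 letters, 3 a half-site, 1 the AP-1 letters, 1 the interferon-response core and 2 the TATA box. A match of letters is a description and does not show binding.

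The libraries held 65915112 to 68229647 counts each. Levels are given in FPKM (fragments scaled to the length of the transcript and to the size of the library), which allows genes of different length to be compared, and changes are log2 fold changes of counts fitted with edgeR. A gene was called when its adjusted p was under 0.05 over the 17002 genes tested, and all 10 genes passed the filter on low counts. In the PBS group the level of Cd14 was 144.4 ± 14.6 FPKM (SD, n = 3), followed by Tlr7 at 128.6 ± 4.25, Tlr2 at 81.1 ± 11.8, Tlr8 at 75.9 ± 5.73 and Tlr13 at 64.8 ± 7.30. Tlr4 was at 30.3 ± 3.99, Tlr9 at 12.9 ± 4.94, Tlr1 at 12.6 ± 2.11, Tlr6 at 11.4 ± 0.810 and Tlr3 at 2.97 ± 0.321. The libraries of neighbours in this order overlapped, except between Tlr7 and Tlr2, Tlr13 and Tlr4, Tlr4 and Tlr9, and Tlr6 and Tlr3. In the RANKL group the first 6 genes kept this order. In the RANKL + Vit D + K group Cd14 and Tlr7 again came first, whereas Tlr8 stood at rank 7 with 3.47 ± 3.34 FPKM, overlapping the libraries of both Tlr6 above it and Tlr1 below it.

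**Figure D1:**
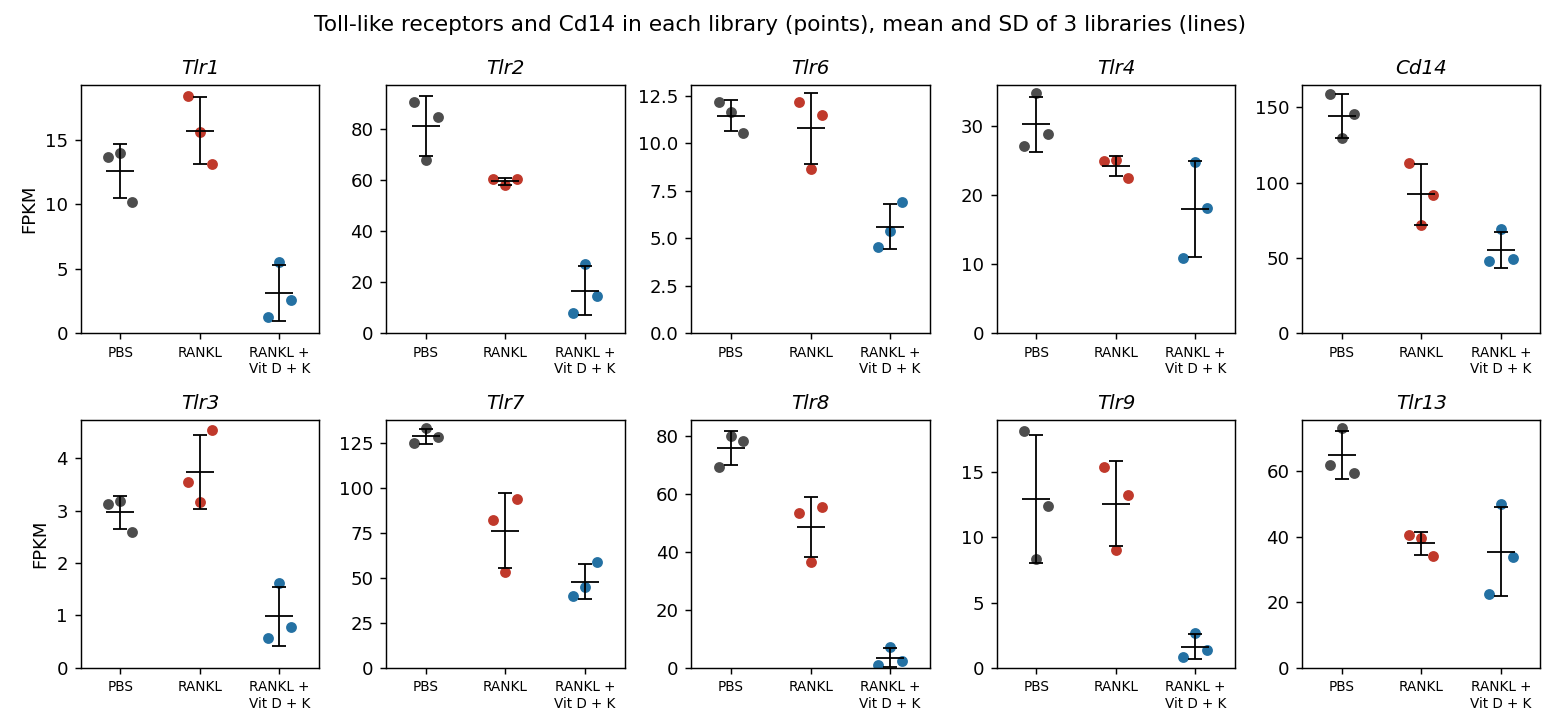
FPKM of each gene in every library (points) by group, with the mean and SD of 3 libraries (lines), each axis starting at 0. The RANKL + Vit D + K libraries of Tlr1, Tlr2, Tlr3, Tlr6, Tlr8, Tlr9 and Cd14 lie below every RANKL library, whereas those of Tlr4, Tlr7 and Tlr13 overlap them.

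The mouse genome holds 3 further Toll-like receptors. Tlr5, the receptor of flagellin, was low, with 159 to 218 counts in the PBS libraries, 311 to 550 in the RANKL libraries and 42, 198 and 45 in those with the vitamins. Adding the vitamins to RANKL lowered it by a log2 fold change of -2.02 (SE 0.520, adjusted p = 0.0171). Without RANKL + Vit D + K replicate 2, which had the 198 counts, the value was -2.98, and the call was lost without RANKL + Vit D + K replicate 1 (-1.70, adjusted p = 0.0534) or 3 (-1.71, adjusted p = 0.0640). Tlr11 had 0 counts in all 9 libraries, which allows a share of up to 4.55e-06% in the smallest library (counting error only), and Tlr12 had 4 counts in 1 RANKL library and 0 in the rest.

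RANKL alone, compared with PBS, asked how these genes differ once macrophages are on the way to osteoclasts. It lowered 1 of the 10 genes, Tlr13, and raised none. Over all genes tested 1.26% were called lower and 2.35% higher. Tlr13, an endosomal receptor of bacterial ribosomal RNA, had 61.8, 73.2 and 59.5 FPKM in the PBS libraries and 40.6, 39.5 and 34.0 FPKM with RANKL, so the groups did not overlap. The change was 1.86-fold lower (log2 fold change -0.89, SE 0.202, adjusted p = 0.0475). This call was lost with median-of-ratios scaling, with limma on FPKM, without a filter on low counts, and without any single one of the 3 PBS libraries, the 3 RANKL libraries or RANKL + Vit D + K replicate 3. In these 7 fits without a library the values ran from -0.96 to -0.76 and the adjusted p from 0.10 to 0.171. Without RANKL + Vit D + K replicate 1 or 2 the call held (adjusted p = 0.0156 and 0.00764). With the replicate number as a block over all 9 libraries, 2 genes were called lower in this comparison, Tlr13 and Tlr7. Over all genes tested 1.69% were called lower and 3.16% higher in that fit. The check of the pairing held for the PBS and RANKL libraries but not throughout for the vitamin libraries, which share this fit.

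Tlr7, a receptor of single-stranded RNA, had 124.7, 133.1 and 128.2 FPKM in the PBS libraries and 82.0, 53.1 and 93.7 FPKM in the RANKL libraries. All 3 RANKL libraries were lower, by a log2 fold change of -0.87 (SE 0.235, adjusted p = 0.0820), and the value with the block was -0.92 (adjusted p = 0.0418). Cd14 also had non-overlapping groups in this comparison, with a log2 fold change of -0.77 (adjusted p = 0.0626). The values of Tlr8 (-0.76), Tlr2 (-0.57) and Tlr4 (-0.45) did not pass the test either, although their RANKL libraries were all below the PBS libraries. Tlr1 (0.20), Tlr3 (0.22), Tlr6 (-0.20) and Tlr9 (-0.16) had overlapping groups. The median over the 10 genes was -0.51, beside -0.04 over all genes tested, and 6 of the 10 genes had every RANKL library below every PBS library, as did 12.9% of all genes tested (19.9% on the scaled CPM of the fit, with the same 6 genes).

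Adding vitamins D and K to RANKL, the comparison on which the study centres, lowered 7 of the 10 genes and raised none. Over all genes tested 17.2% were called lower and 16.4% higher. The falls were 13.4-fold for Tlr8, 7.26-fold for Tlr9, 4.73-fold for Tlr1, 3.54-fold for Tlr3, 3.36-fold for Tlr2, 1.74-fold for Tlr6 and 1.53-fold for Cd14. Tlr7, Tlr4 and Tlr13 did not pass the test. In 7 of the 10 genes every vitamin library was below every RANKL library, which held for 29.2% of all genes tested. This count is on FPKM, and on the CPM (counts relative to the TMM-scaled library size) that the fit uses it was 6, since Cd14 overlapped, beside 25.4% of all genes. The median over the 10 genes was -1.27 on the log2 scale, beside -0.04 over all genes. In these bulk libraries, fewer cells that express a gene and less of its RNA per cell cannot be told apart.

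Among the cell-surface receptors, Tlr2, which pairs with TLR1 or TLR6 to bind bacterial lipopeptides, had 60.2, 58.0 and 60.3 FPKM in the RANKL libraries and 8.001, 27.0 and 14.6 FPKM in those with the vitamins. Its log2 fold change was -1.75 (SE 0.320, adjusted p = 0.00448). All 3 vitamin libraries were below the RANKL libraries. Tlr1, the partner for triacylated lipopeptides, had 18.4, 15.6 and 13.2 FPKM with RANKL and 1.23, 5.53 and 2.58 FPKM with the vitamins, a log2 fold change of -2.24 (SE 0.407, adjusted p = 0.00431) that was -2.84 without RANKL + Vit D + K replicate 2. Tlr6, the partner for diacylated lipopeptides, had 12.2, 8.64 and 11.5 FPKM with RANKL and 4.55, 5.36 and 6.92 FPKM with the vitamins. It fell less, by a log2 fold change of -0.80 (SE 0.200, adjusted p = 0.0154), and this call was lost without RANKL replicate 1 (-0.69, adjusted p = 0.0641) or RANKL replicate 3 (-0.73, adjusted p = 0.0581).

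Tlr4, the receptor of lipopolysaccharide, had 24.9, 25.1 and 22.5 FPKM in the RANKL libraries and 10.9, 24.9 and 18.1 FPKM in the vitamin libraries. The groups overlapped, and the log2 fold change of -0.31 had a 95% interval from -0.78 to 0.16 (adjusted p = 0.286). Without RANKL + Vit D + K replicate 2, whose level lay within the range of the RANKL libraries, it was -0.52 (adjusted p = 0.0429).

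The ratio between the neighbouring genes Tlr1 and Tlr6, which was chosen with the values known, was 1.51, 1.80 and 1.14 in the RANKL libraries and 0.270, 1.03 and 0.373 when the vitamins were added. No vitamin library reached a RANKL library in this ratio, which is given as a description with no test. In the PBS libraries it was 1.13, 1.20 and 0.965.

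The endosomal receptors differed among themselves more widely. Tlr8, an RNA receptor closely related to TLR7, had 53.6, 36.6 and 55.4 FPKM with RANKL and 0.875, 7.23 and 2.31 FPKM with the vitamins. Every vitamin library was below every RANKL library, and the log2 fold change was -3.74 (SE 0.599, adjusted p = 0.00269), or -4.73 without RANKL + Vit D + K replicate 2. Tlr9, the receptor of DNA with unmethylated CpG, had 15.4, 9.05 and 13.3 FPKM with RANKL and 0.840, 2.65 and 1.36 FPKM with the vitamins, a log2 fold change of -2.86 (SE 0.425, adjusted p = 0.00193). Tlr3, the receptor of double-stranded RNA and the member that signals through TRIF and not MyD88, had 3.54, 3.16 and 4.53 FPKM with RANKL and 0.565, 1.62 and 0.770 FPKM with the vitamins. Its log2 fold change was -1.82 (SE 0.319, adjusted p = 0.00373), and its groups did not overlap.

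Tlr7 and Tlr13 stood apart from these. Tlr7 had 39.7, 44.9 and 58.6 FPKM in the vitamin libraries, of which the highest lay above the lowest RANKL library. Its log2 fold change of -0.54 (95% interval from -1.07 to -0.01) did not pass the test (adjusted p = 0.106), and without RANKL replicate 2, the lowest RANKL library, it was -0.77 and passed (adjusted p = 0.0151). Tlr13 had 22.7, 49.9 and 33.9 FPKM in the vitamin libraries, on both sides of the RANKL libraries, and its log2 fold change was 0.02 (95% interval from -0.43 to 0.47, adjusted p = 0.948). The sign of this value turned under other settings.

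**Figure D2:**
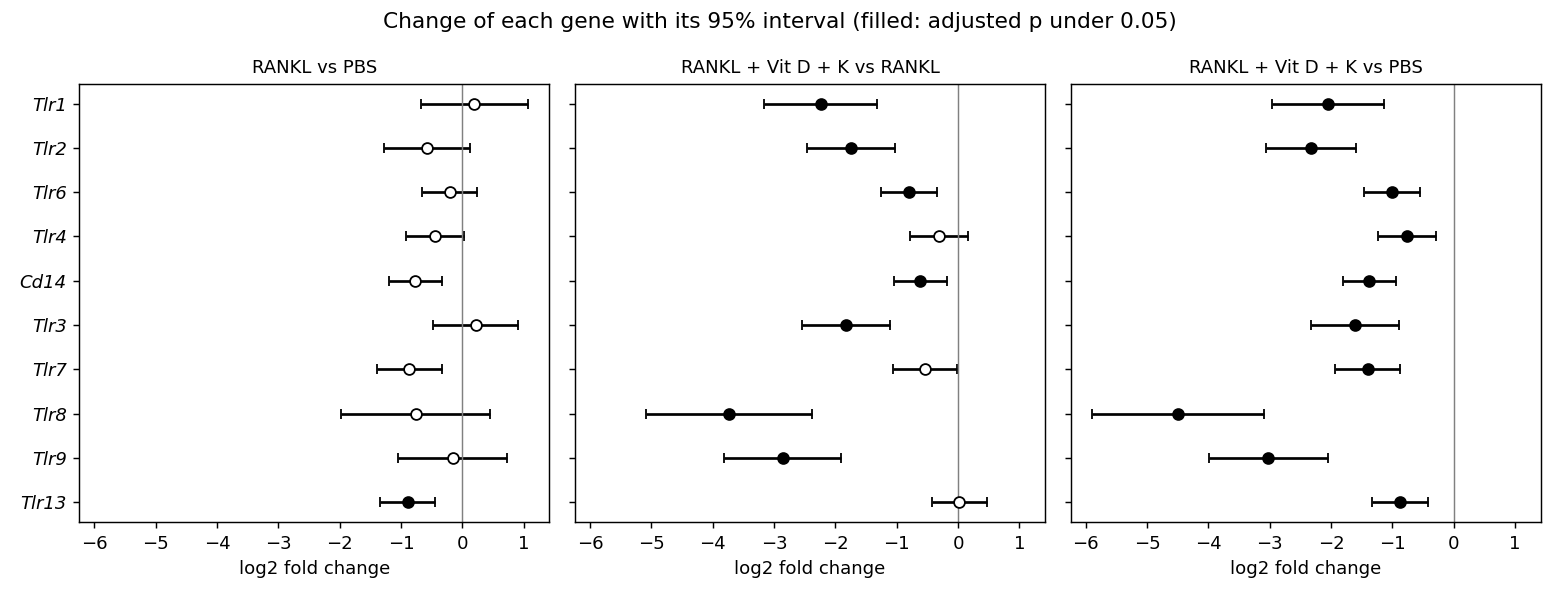
Log2 fold change of each gene (points) with its 95% interval (bars) in the 3 comparisons, filled where the adjusted p was under 0.05. In the middle panel Tlr8 (-3.74) and Tlr9 (-2.86) lie farthest below 0 and Tlr13 (0.02) lies on it, and in the right panel all 10 genes lie below 0.

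The genes Tlr8 and Tlr7 lie next to each other on the X chromosome. Their ratio within a library, also chosen with the values known, was 0.557, 0.601 and 0.611 in the PBS group and 0.654, 0.689 and 0.592 in the RANKL group. Adding the vitamins left 0.0220, 0.161 and 0.0394 in the 3 libraries. These lay below all RANKL libraries, a description of genes picked for their values and not a test.

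**Figure D3:**
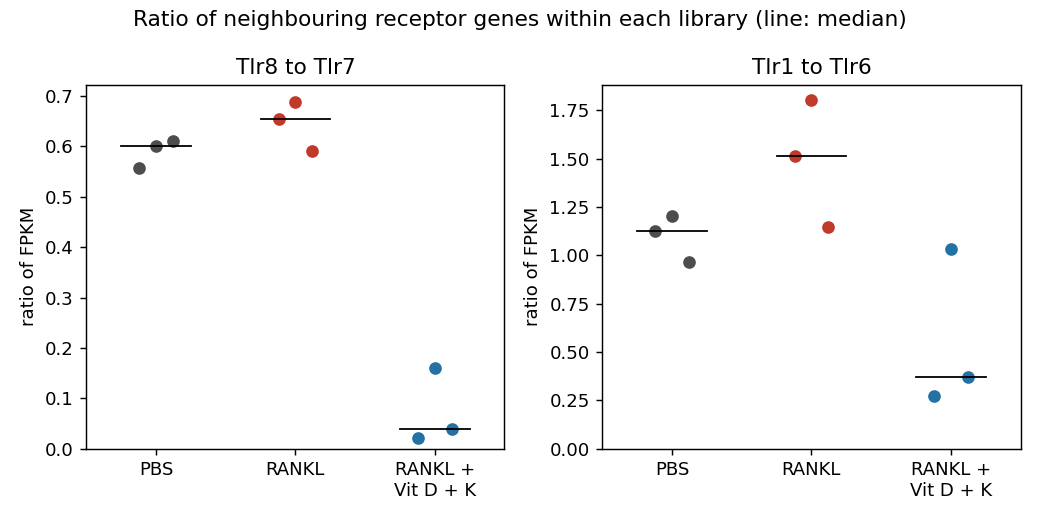
Ratio of the FPKM of Tlr8 to Tlr7 and of Tlr1 to Tlr6 within each library (points) by group, with the median of 3 libraries (line). The Tlr8 to Tlr7 ratio lies between 0.557 and 0.689 in the PBS and RANKL libraries and between 0.0220 and 0.161 in those with the vitamins.

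The summed level of the 9 receptors was 420.8 ± 5.38 FPKM in the PBS group, 289.3 ± 35.1 with RANKL and 132.5 ± 40.3 with RANKL and the vitamins (SD, n = 3). Tlr8 made up 16.6 ± 1.72% of this sum with RANKL and 2.31 ± 1.74% with the vitamins. Tlr13 made up 13.3 ± 2.45% with RANKL and 26.4 ± 2.74% with the vitamins. The share of Tlr7 was 26.0 ± 4.52% and 37.7 ± 9.72%, and its libraries overlapped between these groups.

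Cd14, at chr18:36725067-36726798, had 158.6, 129.4 and 145.3 FPKM in the PBS libraries, 112.7, 72.1 and 91.8 FPKM in the RANKL libraries and 47.7, 68.9 and 49.2 FPKM in the vitamin libraries. The 3 groups did not overlap in FPKM, but in the scaled CPM of the fit RANKL + Vit D + K replicate 2 (126.6) lay above RANKL replicate 2 (124.8). Relative to the RANKL group the vitamins lowered it by a log2 fold change of -0.61 (SE 0.190, adjusted p = 0.0346). This call was lost without PBS replicate 3, RANKL replicate 1, RANKL replicate 3, RANKL + Vit D + K replicate 1 or RANKL + Vit D + K replicate 3, with values from -0.61 to -0.43 and adjusted p from 0.0523 to 0.135. The ratio of Cd14 to Tlr4 overlapped between these groups.

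Against PBS, which sets RANKL and the vitamins together beside untreated macrophages, all 10 genes fell with RANKL and the vitamins, a comparison in which 21.0% of all genes tested were called lower and 19.8% higher. The comparison shares its libraries with both others. In all 10 genes every vitamin library was below every PBS library, which held for 27.7% of all genes tested. The log2 fold change was -4.50 for Tlr8 (SE 0.621, adjusted p = 0.000893), -3.02 for Tlr9, -2.32 for Tlr2, -2.05 for Tlr1, -1.60 for Tlr3, -1.40 for Tlr7, -1.38 for Cd14, -1.004 for Tlr6, -0.87 for Tlr13 and -0.76 for Tlr4 (SE 0.210, adjusted p = 0.0190). Without RANKL + Vit D + K replicate 2 the values of Tlr8 and Tlr1 were -5.49 and -2.64. The call of Tlr4 was lost without any of the 3 PBS libraries or RANKL + Vit D + K replicate 3, with adjusted p from 0.0505 to 0.0889.

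The 3 vitamin libraries were not alike. Replicate 2 held the highest level of 8 of the 10 genes among them, and without it 8 of the 10 genes were called lower than in the RANKL group. In that fit 25.2% of all genes tested were called lower, beside 17.2% with all libraries, so the share rose over all genes too.

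Markers of cell types moved with the same groups. The summed level of 10 macrophage markers was 27050 to 31309 FPKM in the PBS libraries, 17081 to 24959 FPKM with RANKL and 4568, 11666 and 6307 FPKM with the vitamins. Most of this sum was Lyz2, the lysozyme of macrophages and other myeloid cells, which made up 87.8 to 90.4% of it in the PBS and RANKL libraries and 69.8 to 87.2% in the vitamin libraries. Without Lyz2, left out after its values were seen, the other 9 markers summed to 2869 to 3070 FPKM with PBS, 2079 to 2740 FPKM with RANKL and 1378, 1498 and 1455 FPKM with the vitamins. The vitamin libraries were below the RANKL libraries in both sums, but replicate 2 stood apart from the other vitamin libraries only in the sum with Lyz2. Of the 10 markers 7 fell with the vitamins relative to RANKL, among them Csf1r, the M-CSF receptor (-1.45), and Fcgr1 (-2.87), whereas Cd68 rose (0.53), a call lost without RANKL replicate 1 or 3 (0.54 in both fits). The summed level of 5 monocyte markers was 25.04 to 45.3 FPKM with RANKL and 2.16 to 4.23 FPKM with the vitamins, 4 of them being called lower, and the defining marker Ly6c2 was at 0 counts in all 3 vitamin libraries. The 10 neutrophil and granulocyte precursor markers summed to 11.4 to 148.4 FPKM with RANKL and 0.551 to 1.72 FPKM with the vitamins, with 7 of 9 tested called lower. Ly6g, the defining marker, was at 0 in all RANKL and vitamin libraries. The 10 osteoclast markers summed to 23.6 to 31.8 FPKM with PBS, 488.9 to 1022 FPKM with RANKL and 70.4 to 100.4 FPKM with the vitamins. Relative to RANKL 8 of these markers were called lower with the vitamins, among them Acp5, which encodes the acid phosphatase of osteoclasts (-5.89), and Ctsk, the collagen-degrading cathepsin K (-2.80). Itgb3, which encodes the integrin β3 subunit, rose (2.08, adjusted p = 0.0186), and Atp6v0d2, a subunit of the proton pump, was not called (-0.23, adjusted p = 0.701). Acp5 had -7.16 without RANKL + Vit D + K replicate 2, and the call of Itgb3 was lost without RANKL replicate 1, RANKL replicate 3, RANKL + Vit D + K replicate 1 or RANKL + Vit D + K replicate 3 (1.91 and 1.97 without the RANKL libraries, adjusted p at most 0.0723). The part of these cell types in the falls of the receptors was not tested.

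Markers of other cells that carry these receptors were low in most lists, the plasmacytoid dendritic list being the exception. B cell markers summed to at most 0.926 FPKM in any library, with Ebf1 at 0 in all 9 libraries. The plasmacytoid dendritic cell markers summed to 66.1 to 109.9 FPKM with RANKL and 53.0 to 64.5 FPKM with the vitamins, but Siglech, the defining one, had at most 20 counts. Bst2, which many cells express, made up 85.2 to 89.6% of that sum with RANKL and 52.3 to 77.9% with the vitamins, and of the 5 markers tested 3 were called lower and 1, Cox6a2, higher. Cox6a2 had 0.118 to 0.213 FPKM with RANKL and 28.9, 8.81 and 23.5 FPKM with the vitamins, and without Bst2 the list summed to 6.90 to 15.4 FPKM and to 11.7 to 30.8 FPKM, and these ranges overlap. Conventional dendritic cell markers summed to 2.29 to 2.89 FPKM with RANKL and 6.71 to 8.08 FPKM with the vitamins. This higher sum was Itgax, which encodes CD11c and is found in macrophages too (log2 fold change 2.24). The other 6 markers summed to 0.630 to 1.066 FPKM with RANKL and 0.0315 to 0.181 FPKM with the vitamins, where Flt3 and Cd209a were called lower and were at 0 in all 3 libraries. Of the 8 T and NK cell markers 3 were in the table used here, summing to at most 3.86 FPKM, mostly Cd4, and of the 5 mast cell and basophil markers only Cpa3 was, at no more than 0.0633 FPKM, so these lists say little about those cells. The 8 stromal cell and osteoblast markers summed to at most 0.335 FPKM and 4 of 5 erythroid markers to at most 0.436 FPKM.

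**Figure D4:**
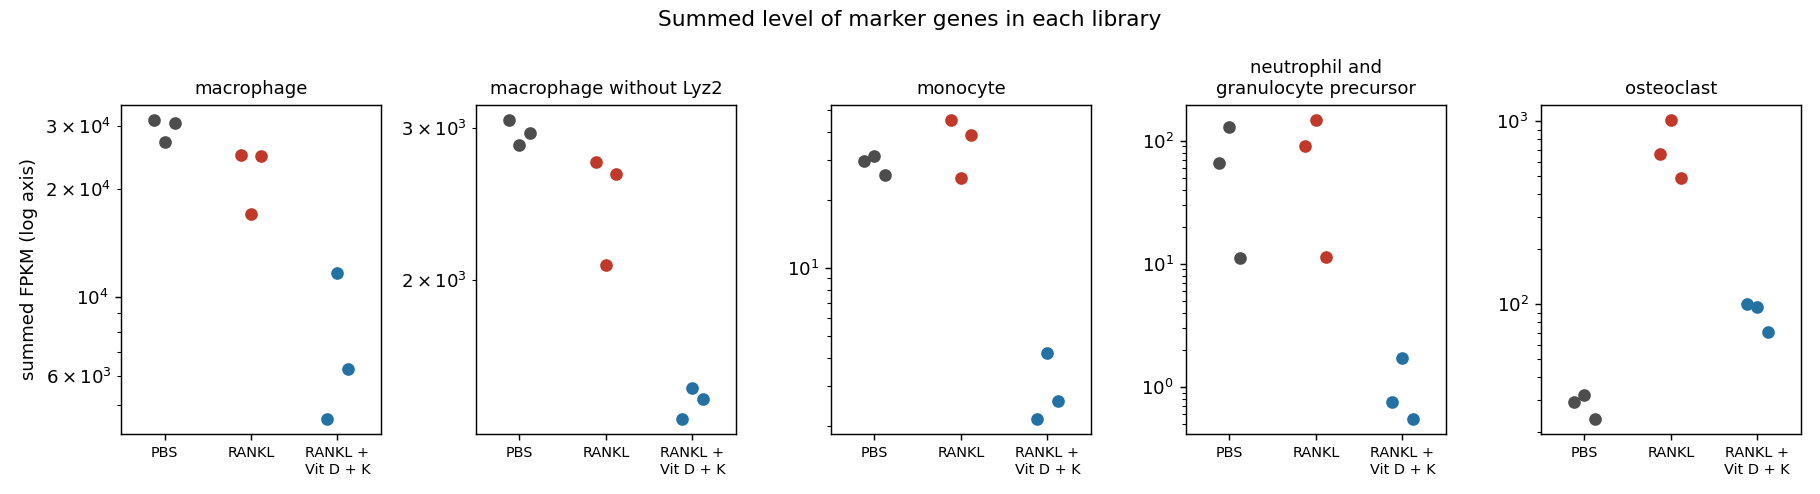
Summed FPKM of the macrophage (with and without Lyz2), monocyte, neutrophil and osteoclast marker lists in each library (points) on log axes. The macrophage sum of the vitamin libraries lies between 4568 and 11666 FPKM with Lyz2, most of the sum, and between 1378 and 1498 FPKM without it, below all RANKL libraries both times, and their monocyte and neutrophil sums are also below all RANKL libraries.

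The partners of the receptors were followed in 126 genes in lists by role, of which 115 were tested. RANKL lowered 2 and raised 3 of them relative to PBS, a comparison in which 1.26% of all genes tested were called lower and 2.35% higher. Lbp, the plasma protein that passes lipopolysaccharide to CD14, fell (-1.49, SE 0.303, adjusted p = 0.0324), as did Ctsb, a cathepsin protease (-0.73). Stx11, a protein of membrane traffic (0.75), Nfkb2, an NF-κB subunit (0.89), and Ctsk, the collagen-cutting cathepsin of osteoclasts (4.83), rose. The calls of Lbp, Ctsb, Stx11 and Nfkb2 were each lost without any single PBS library, RANKL replicate 1 or RANKL replicate 2, those of Lbp, Ctsb and Stx11 also without RANKL replicate 3 and those of Lbp and Ctsb without RANKL + Vit D + K replicate 3. In these fits the log2 fold change ran from -1.71 to -1.36 for Lbp, from -0.79 to -0.50 for Ctsb, from 0.65 to 0.87 for Stx11 and from 0.78 to 1.02 for Nfkb2. With the replicate block 9 were called lower and 3 higher, beside 1.69% and 3.16% of all genes. The vitamins lowered 40 and raised 30 of the 115 genes relative to RANKL, with a median of -0.24, and lowered 43 and raised 24 relative to PBS. Over all genes tested 17.2% were lower and 16.4% higher relative to RANKL, which is the background of the list counts that follow, and 21.0% and 19.8% relative to PBS.

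Of the 13 co-receptors and accessory genes tested, 3 fell and 2 rose with the vitamins relative to RANKL (median -0.47). Lbp fell by a log2 fold change of -2.21 and Ly86, which encodes the MD-1 partner of CD180, by -1.94. The level of Lbp was low, with 67, 114 and 77 counts with RANKL and 12, 19 and 19 with the vitamins. Cd36, a lipid scavenger receptor that works with TLR2 and TLR6, rose (1.63), and so did Cd44, the hyaluronan receptor (1.11). Ly96, which encodes the MD-2 partner of TLR4, had 0.27 (adjusted p = 0.322) and Cd180 -0.63 (adjusted p = 0.0958). Both passed the test without RANKL + Vit D + K replicate 2, with 0.44 (adjusted p = 0.0366) and -0.93 (adjusted p = 0.00901).

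Of the 11 chaperones and trafficking genes tested, 3 fell and 4 rose (median 0.35). Unc93b1, which carries the endosomal receptors from the endoplasmic reticulum, fell (-0.72, SE 0.205, adjusted p = 0.0255), as did Cnpy4 (-0.78) and Stx11 (-0.57). Rab7b, a small GTPase of late endosomes, rose (2.09), and so did Hsp90b1, the chaperone gp96 that folds Toll-like receptors (0.43). Its co-chaperone Cnpy3 had -0.35 (adjusted p = 0.0841). Of the 6 proteases that cut endosomal receptors, 3 fell (Ctsk -2.80, Ctsh -0.73 and Ctss -0.67) and 2 rose (Ctsl 0.55 and Ctsb 0.50). The calls of Unc93b1 and Cnpy4 were lost without RANKL replicate 1, RANKL replicate 3, RANKL + Vit D + K replicate 1 or RANKL + Vit D + K replicate 3, with values from -0.71 to -0.58 and from -0.79 to -0.58. That of Stx11 was lost without RANKL + Vit D + K replicate 1 (-0.58) or 3 (-0.52), and that of Ctss without RANKL replicate 1 (-0.61) or 3 (-0.52). Hsp90b1 and Ctsh were each lost without any of 7 of the 9 libraries, and Ctsb and Ctsl without any of 5. In these fits the values ran from 0.35 to 0.46 for Hsp90b1, from -0.73 to -0.57 for Ctsh, from 0.44 to 0.56 for Ctsb and from 0.45 to 0.56 for Ctsl. Cnpy3 passed the test without RANKL replicate 2 (-0.49, adjusted p = 0.0181).

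The 6 adaptors moved in both directions, with 3 called lower and 2 higher (median -0.60). Myd88, the adaptor of all these receptors but TLR3, fell (-1.07, SE 0.180, adjusted p = 0.00327), and so did Tirap, which bridges MyD88 to TLR2 and TLR4 (-1.61), and Sarm1 (-3.17). The level of Sarm1 was low, with 136, 106 and 47 counts with RANKL and 5, 12 and 12 with the vitamins. Ticam1, which encodes TRIF, rose (1.03, SE 0.303, adjusted p = 0.0280), and so did Ticam2, which bridges TRIF to TLR4 (0.71). Of the 22 kinases and ubiquitin ligases, 5 fell and 6 rose (median -0.11). Those with the greatest changes were Ikbke, a kinase of interferon regulatory factors (-1.99), Irak2 (1.78), Peli3 (-1.07) and Irak4, the first kinase after MyD88 (-0.89). The call of Ticam1 was lost without any single RANKL library, RANKL + Vit D + K replicate 1 or RANKL + Vit D + K replicate 3 (0.73 to 1.16), that of Ticam2 without RANKL + Vit D + K replicate 3 (0.55, adjusted p = 0.0681) and that of Peli3 without RANKL replicate 1 (-0.92) or 3 (-0.99).

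Of the 14 transcription factors, 4 fell and 3 rose (median -0.16). Irf7, which drives interferon genes after endosomal receptors and is also in the plasmacytoid dendritic cell list, fell (-3.09), whereas Atf3 (3.65), Jun (2.34) and Cebpb (1.46) rose. Of the 21 inhibitors tested, 8 fell and 5 rose (median -0.46). Bcl3 (-2.41), Nfkbie (-1.96), Sigirr (-1.63) and Irak3, which encodes the inhibitory IRAK-M (-1.42), fell, and Dusp1, a phosphatase of MAP kinases, rose (1.83). Tnfaip3, which encodes A20, had 0.55 (adjusted p = 0.208). Without RANKL + Vit D + K replicate 2 the values were -3.25 for Bcl3, -3.26 for Nfkbie and 0.83 for Tnfaip3 (adjusted p = 0.0228). The call of Nfkbie was lost without any other single library (-2.08 to -1.48, adjusted p from 0.0677 to 0.161). Dusp1 had 2.49 without RANKL replicate 2, and its call was lost without RANKL replicate 1, RANKL replicate 3 or RANKL + Vit D + K replicate 1 (1.45 to 1.71).

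Of the 21 cytokines and other target genes tested, 10 fell and 6 rose (median -0.74, the same with Il1b at its bound). Il1b had 142, 32 and 506 counts with RANKL and 0 in all vitamin libraries, at least 75.6-fold lower with 3 counts per library as the floor, or at least 29.0-fold without RANKL replicate 3. Lcn2 (-5.22), Cxcl10 (-4.74) and Il10 (-4.61) had the next largest fitted falls. Il10 had 86, 81 and 24 counts with RANKL and 0, 7 and 0 with the vitamins. Without RANKL + Vit D + K replicate 2 its vitamin libraries were all at 0, so no fold was measured there. The genes that rose were Ccl3, Ccl4, Ptgs2, Cxcl2, Il1a and Cd86, named after their values were seen.

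**Figure D5:**
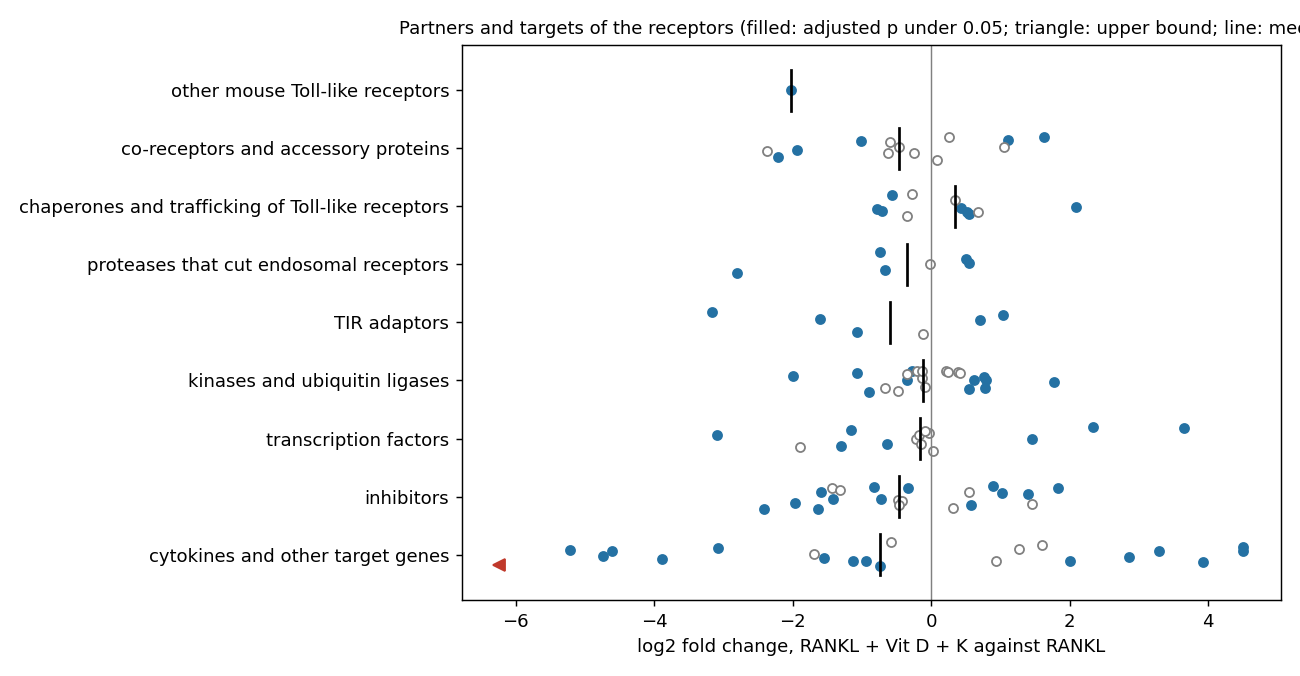
Log2 fold change of each tested partner or target (points) in the RANKL + Vit D + K group relative to the RANKL group, by list, filled where the adjusted p was under 0.05, with the median (line). The triangle is the bound of Il1b from 3 counts per library, and every list but the first holds genes called on both sides of 0.

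Against PBS the vitamins with RANKL gave 4 lower and 1 higher of the 6 adaptors, with Myd88 at -1.25, Tirap at -1.80, Ticam2 at 0.57 and Ticam1 at 0.70 (adjusted p = 0.0921). Unc93b1 (-1.23), Cnpy3 (-0.68), Ly86 (-2.69), Lbp (-3.70) and Irak3 (-1.85) were lower, and Hsp90b1 (0.71) and Cd44 (1.29) higher. Ly96 had 0.02 (adjusted p = 0.951), Cd180 -0.22 and Tnfaip3 0.82 (adjusted p = 0.0656). Ticam1 (1.01) and Tnfaip3 (1.10) passed the test without RANKL + Vit D + K replicate 2, and the call of Ticam2 was lost without PBS replicate 2, PBS replicate 3, RANKL replicate 1 or RANKL + Vit D + K replicate 3 (0.46 to 0.62).

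For each gene called in the RANKL comparison or on adding the vitamins, the 2 other tested genes with the highest Pearson correlation of log2 CPM over the 9 libraries were named as a description, since all share the same 3 groups. They were Neurl3 (0.998) and Abcd2 (0.998) for Tlr8, Fgd2 (0.997) and Asb4 (0.995) for Tlr1, Zfyve28 (0.996) and 9330151L19Rik (0.996) for Tlr2, Psmb10 (0.996) and Parp8 (0.994) for Tlr3, and Cbx7 (0.993) and Ncr3-ps (0.993) for Tlr9. For Cd14 they were Nisch (0.993) and Mapk3 (0.987), for Tlr6 Plxdc2 (0.991) and Skint3 (0.986), and for Tlr13 2900026A02Rik (0.982) and Nek10 (0.976).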

How the data were processed

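RNA was sequenced from 9 BMDM libraries in 150-base paired reads, and the labels gave the group and replicate of each. The authors deposited 1 table with counts and FPKM per gene and library. The submitters' processing notes name cutadapt 1.9, HISAT2 2.0.4, StringTie 1.3.4d and edgeR, and the build hg38. Of 28294 gene IDs found in the mouse GRCm38 annotation (GENCODE M21), 28255 overlapped the same gene there, and GRCm38 was used. The counting program and its strand setting are not given in the sources used here, and the value 4 occurred 7347 times, more often than 3 (4268) or 5 (2360).

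Counts as deposited were fitted with edgeR 4.0.16 (R 4.3.3, TMM scaling, filterByExpr, quasi-likelihood test, all 3 groups in 1 fit), with Benjamini-Hochberg adjustment over 17002 genes. Calls needed an adjusted p under 0.05. FPKM as deposited by the authors served for levels and for ratios within a library, which were chosen with the values known and are given with no test. The scripts were tested on counts simulated for the vitamins against RANKL. There edgeR called 14.4% of the genes changed 2-fold and 61.5% of those changed 4-fold, so a gene not called may still differ. DESeq2 1.42.0, limma 3.58.1 (voom with quality weights, and log2(FPKM + 1) or + 0.1), other filters, fits of 2 groups, a replicate block and leaving out each library were the alternatives.

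Deviations from group means of same-numbered PBS and RANKL libraries correlated at 0.122, 0.219 and 0.155, all above 0.1. The block by these numbers, taken from the labels, was therefore read as a pairing for RANKL against PBS only. Its fit held all 9 libraries, so the vitamin libraries also shaped its replicate terms and its spread. All 10 members, Tlr5, Tlr11, Tlr12 and 12 direct partners were named whatever their values, with up to 4 called genes of greatest change per list. Members and lists were chosen with earlier results of these data known.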

Additional observations from a re-analysis of the deposited data

How the results depend on the processing

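In RANKL against PBS the number of the 10 genes called lower, 1, was 3 with DESeq2, 0 with median-of-ratios scaling, 0 with limma on log2(FPKM + 1) and 0 on log2(FPKM + 0.1), 5 with voom quality weights, 0 without a filter, 6 with those 2 groups alone, 2 with the replicate block and 0 to 3 when a library was left out. The share of all genes called lower, 1.26%, moved too, to 3.86%, 1.08%, 1.47%, 1.22%, 8.80%, 0.453%, 4.29%, 1.69% and 0.169 to 5.23% in the same order. The share called higher, 2.35%, moved to 6.18% with DESeq2, 2.45% with median-of-ratios scaling, 3.40% and 3.56% with limma and 8.88% with voom. It was 1.13% without a filter, 6.32% with 2 groups, 3.16% with the block and 0.540 to 5.46% with a library left out. The 3 partners called higher became 6 with DESeq2, 5 and 5 with limma on FPKM, 9 with voom, 7 with 2 groups and 1 to 7 with a library left out, and the 2 called lower became 6, 3 and 3, 25 and 13 under these, 0 without a filter, 9 with the block and 0 to 16 with a library left out. With the vitamins against RANKL, 5 to 8 genes were called lower under the alternatives (5 to 8 with a library left out), where 9.16 to 33.6% of all genes were, and the partners called higher and lower with a library left out ranged from 17 to 38 and from 26 to 46. Against PBS the 10 genes called lower were 9 or 10 under every alternative. Tlr13 with the vitamins against RANKL turned to -0.17 and -0.16 (limma on FPKM, pseudocounts 0.1 and 1), -0.049 (voom), -0.011 (no filter), -0.013 (block) and ranged from -0.21 to 0.23 with a library left out, and Tlr9 in RANKL against PBS ranged from -0.36 to 0.22. The causes were not tested. In the vitamin comparisons the deviations of same-numbered libraries correlated at 0.0062, 0.043 and 0.107 (against RANKL) and -0.022, 0.022 and 0.024 (against PBS), not all above 0.1, and with the replicate block only the call of Cd14 against RANKL was lost among the 10 genes (-0.58, adjusted p = 0.0509). On log2(FPKM + 0.1) the median of all genes in the vitamins against RANKL was -0.16 in place of -0.04, and 64.4% of calls were lower in place of 51.2%.

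The lowest count of any of the 10 genes was 219, in Tlr9. Where a library was left out, its group of 2 shared the spread of the fit.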
